A study of Mus musculus with 18 samples.

Results

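The 7 genes described here, H2-Aa, H2-Ab1, H2-Eb1, Cd74, H2-DMa, H2-DMb1 and Ciita, carry the MHC class II antigen presentation pathway of the mouse. They were taken by gene symbol from the deposited table of 22787 genes, with earlier results of these data known. All 7 symbols were found.

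MHC class II molecules show peptides from endocytosed proteins to CD4+ T cells. An alpha chain (H2-Aa) and a beta chain (H2-Ab1), or the beta chain H2-Eb1 with an alpha chain of its own, assemble around the invariant chain Cd74, which fills the peptide groove and directs the complex to endosomes. Proteases trim the invariant chain there, and the heterodimer of H2-DMa and H2-DMb1 exchanges the last fragment for peptide. Transcription of the chains depends on Ciita, a coactivator that does not bind DNA itself and docks on factors held at the X and Y boxes of class II promoters. B cells and dendritic cells are among the main class II positive cells of bone marrow.

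RNA of 18 libraries was measured by SmartSeq2, a full-length low-input method, in 7 groups. Granulocyte-monocyte progenitors of mouse bone marrow, the precursors of neutrophils and monocytes, make up 4 groups of 3 libraries: Raptor KO, with Raptor fl/fl as its control, and Tsc2 KO, with Tsc2 fl/fl as its control. Each library holds 10000 sorted cells. The gate kept cells with c-kit and FcγRII/III, took low CD34 and low Ly6C, and left out Sca-1, CD127 or CD135 positive cells; a lineage panel was stained too, whose antibodies the labels do not list. Raptor is a subunit of the kinase complex mTORC1, which is kept off by Tsc2. The sources used here name neither the Cre driver nor the age or strain of the animals. The other 3 groups (2 libraries each) are DR-ER-Hoxb8 cells, immortalized myeloid progenitors that stay immature while estradiol keeps Hoxb8 active, after 3 days of estradiol withdrawal with SCF present. They received the mTORC1 inhibitor rapamycin at 100 nM, the RSK kinase inhibitor SL0101-01 (SL0101 from here on) at 10 nM, or DMSO. Whether replicates came from different animals or cultures is not stated, so p-values measure only the spread between these libraries.

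Values are deposited signal units, fragments divided by a size factor per library, and 1 fragment was worth 0.663 to 1.12 units. A progenitor library held 2.48 to 3.52 M fragments, and a Hoxb8 library 2.31 to 3.30 M. Rptor had 61.5, 58.7 and 69.5 units in Raptor KO against 88.0, 78.6 and 86.8 in Raptor fl/fl, and Tsc2 had 103, 99.0 and 83.0 units in Tsc2 KO against 269, 235 and 241 in Tsc2 fl/fl. Both genes were lower in every knockout library than in its controls (adjusted p = 0.377 for Rptor and 1.7e-04 for Tsc2). Sample titles set the groups, as the genotype given for the Tsc2 libraries in 1 field is Raptor. The Tsc2 groups were uneven. Replicate 2 of Tsc2 KO and replicate 2 of Tsc2 fl/fl were the only progenitor libraries with Y-linked transcripts, at 318 and 385 units summed over 4 genes against at most 0.778 in the others. A list of 14 genes used in the sort or typical of these progenitors (Kit, Mpo, Elane and others) summed to 40850, 8813 and 13220 units in Tsc2 KO and to 78560, 37030 and 83010 units in Tsc2 fl/fl.

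All 7 members were measured above 0 in each progenitor group, and 3 of them, H2-Aa, H2-Eb1 and Ciita, were at or near 0 in Hoxb8 cells. The alpha gene that would pair with H2-Eb1, listed as H2-Ea-ps, was at 0 in every library. Between genes, levels were set side by side per kilobase of the union of all annotated exons. For H2-Ab1 this union has 2568 bases, while its longest transcript has 1212, so the order between genes depends on the length used. In Raptor fl/fl the mean level per kilobase was 459 ± 114 units for Cd74, 237 ± 33.2 for H2-Ab1, 105 ± 38.6 for H2-Eb1, 102 ± 11.0 for H2-DMa, 75.5 ± 15.4 for H2-Aa, 25.3 ± 6.35 for H2-DMb1 and 2.10 ± 0.791 for Ciita (SD, n = 3). On this scale the libraries of H2-Eb1, H2-DMa and H2-Aa overlapped in that order, and Cd74 and H2-Ab1 stood apart from them and from each other. Other lengths were not tested. In Hoxb8 cells under DMSO the order was another one, with 83.7 ± 23.2 units per kilobase for H2-DMa, 33.2 ± 9.68 for Cd74, 6.32 ± 3.63 for H2-DMb1 and 1.43 ± 0.718 for H2-Ab1 (SD, n = 2).

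Across the 7 groups, the mean level of Cd74, H2-Aa, H2-Ab1, H2-Eb1 and Ciita followed 1 order in the progenitors: Tsc2 KO lowest, then Raptor KO, Tsc2 fl/fl and Raptor fl/fl. The 2 fl/fl groups overlapped in each of these 5 genes, and Raptor KO and Tsc2 KO overlapped in none. H2-DMa ran from 111 units in SL0101 through 135 in rapamycin, 141 in Tsc2 KO, 289 in DMSO, 305 in Tsc2 fl/fl and 318 in Raptor KO to 350.3 in Raptor fl/fl, and the last 4 of these groups overlapped with their neighbours. H2-DMb1 was highest in Raptor KO at 48.1 units, next to 42.5 units in Raptor fl/fl, and these libraries overlapped as well.

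**Figure D1:**
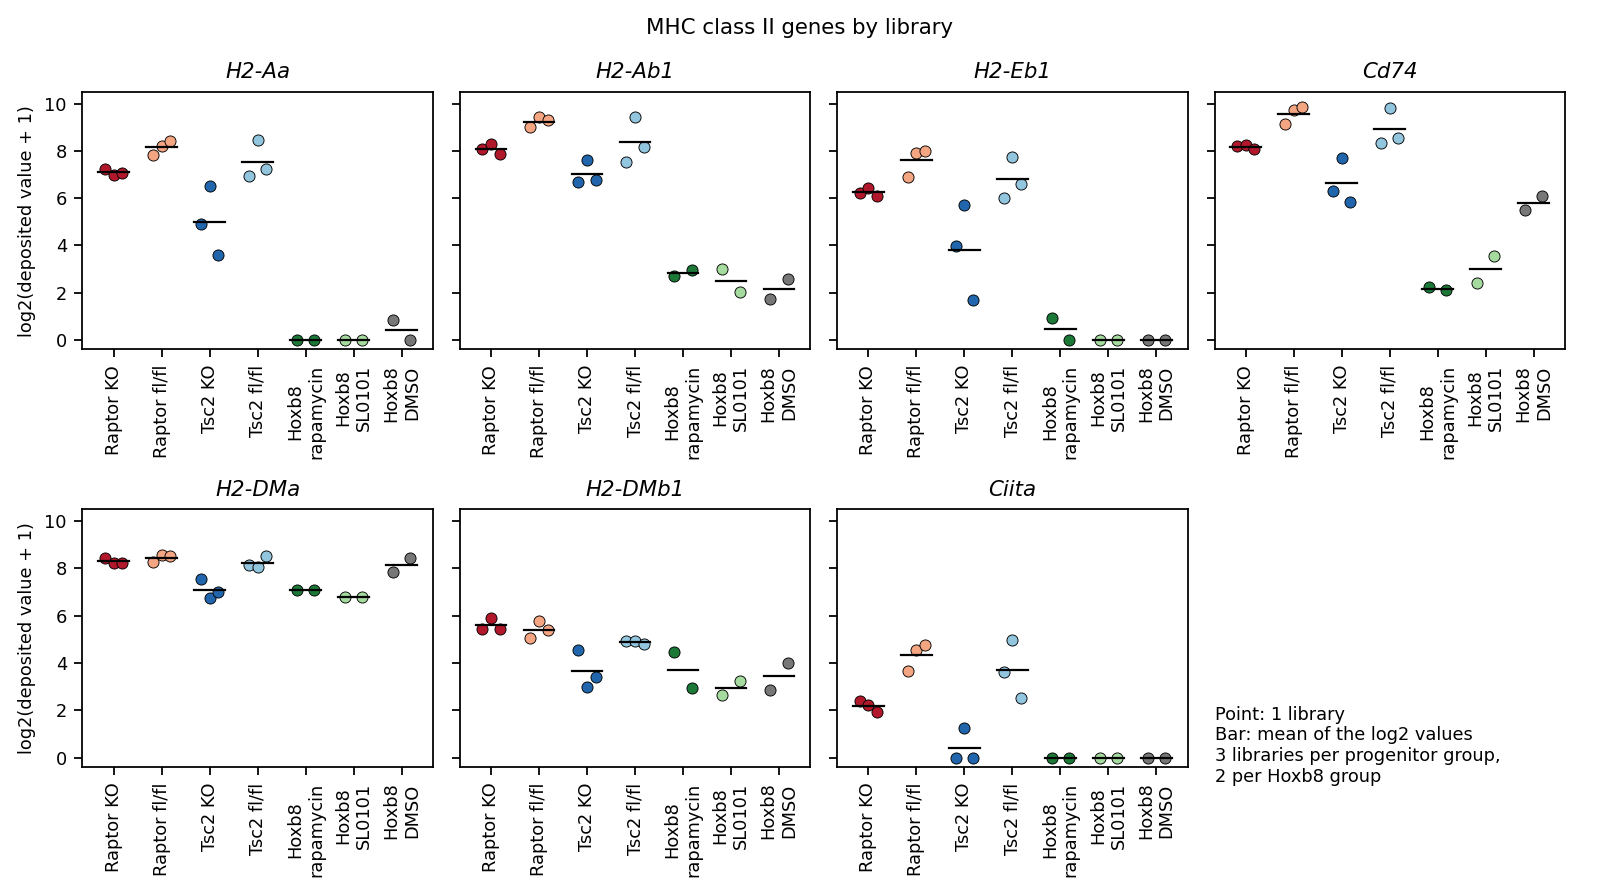
Level of each MHC class II gene by library, as log2 of the deposited value plus 1, with 1 point per library and a bar at the mean of the log2 values (3 libraries per progenitor group, 2 per Hoxb8 group). Ciita lies at 0 in all 6 Hoxb8 libraries, and H2-DMa lies above 6 on this axis (107 to 379.9 units) in all 18.

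Promoter windows of members were searched for an X1 box, its shorter core and a Y box core on both strands, because class II promoters are known by these elements and Ciita acts through them. The shorter X1 core is NNACNGAT, the X1 box is that core with CCNNG directly before it, and the Y box core is GATTGG. RefSeq windows (GRCm38.p6, 250 bases before to 50 after the gene start) were searched for 4 of the 7 members, H2-Aa, H2-Eb1, H2-DMb1 and H2-DMa; those of H2-Ab1, Cd74 and Ciita were not used here. They are shown 5′ to 3′ on the gene's strand, with matches to any of these motifs in capitals. The H2-Eb1 window spans chr17:34305617-34305916 (plus strand), the H2-Aa window chr17:34287774-34288073 (minus strand), the H2-DMb1 window chr17:34152941-34153240 (plus strand) and the first of 2 H2-DMa windows chr17:34122582-34122881 (plus strand).
H2-Eb1: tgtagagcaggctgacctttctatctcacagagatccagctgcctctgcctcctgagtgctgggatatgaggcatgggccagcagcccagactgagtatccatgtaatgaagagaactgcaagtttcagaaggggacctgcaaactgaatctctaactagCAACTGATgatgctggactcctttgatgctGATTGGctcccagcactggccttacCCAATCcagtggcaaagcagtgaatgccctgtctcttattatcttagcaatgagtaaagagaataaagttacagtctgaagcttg
H2-Aa: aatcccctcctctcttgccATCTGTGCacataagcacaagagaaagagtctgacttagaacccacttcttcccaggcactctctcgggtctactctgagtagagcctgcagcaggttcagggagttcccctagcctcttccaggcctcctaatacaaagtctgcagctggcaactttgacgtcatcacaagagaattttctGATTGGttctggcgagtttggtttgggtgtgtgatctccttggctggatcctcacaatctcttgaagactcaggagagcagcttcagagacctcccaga
H2-DMb1: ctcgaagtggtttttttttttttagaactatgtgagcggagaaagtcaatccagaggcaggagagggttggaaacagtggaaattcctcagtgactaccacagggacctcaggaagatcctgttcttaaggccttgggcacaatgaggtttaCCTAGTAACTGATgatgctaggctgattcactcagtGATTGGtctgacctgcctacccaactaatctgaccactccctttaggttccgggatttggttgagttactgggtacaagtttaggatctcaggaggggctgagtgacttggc
H2-DMa: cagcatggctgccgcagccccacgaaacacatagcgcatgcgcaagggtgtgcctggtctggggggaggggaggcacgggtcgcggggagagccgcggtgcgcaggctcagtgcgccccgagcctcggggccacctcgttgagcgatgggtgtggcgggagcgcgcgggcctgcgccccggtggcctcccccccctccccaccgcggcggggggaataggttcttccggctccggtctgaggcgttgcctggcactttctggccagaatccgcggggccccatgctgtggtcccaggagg

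The Y box core lies 49 bases before the start in H2-Aa, 60 in H2-Eb1 and 62 in H2-DMb1, and 16.1% of all 32851 windows hold it. The full X1 box was found in H2-DMb1 alone among these members, 98 bases before the start, and in 0.67% of all windows. The shorter X1 core lies 90 bases before the start in H2-Eb1, 93 in H2-DMb1 and, on the other strand, 231 in H2-Aa, and 25.6% of all windows hold it. A shorter X1 core followed within 40 bases by a Y box on the same strand, a search added after the data were seen, occurs in H2-Eb1 and H2-DMb1 and in 0.28% of all windows. The first H2-DMa window holds none of the 3, and the second holds a Y box core 199 bases before its start. These matches describe letters in a window and are no evidence of binding.

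In the chain genes H2-Aa, H2-Ab1 and H2-Eb1, the invariant chain Cd74 and the coactivator Ciita, all 3 Raptor KO libraries had lower values than any Raptor fl/fl library. The H2-DM genes differed by less than the spread between libraries. In 5 of 7 members the libraries of the 2 groups did not overlap, all with Raptor KO lower, where 13.1% of all tested genes show such a split downwards. None of the 7 passed the adjusted threshold of 0.05 in the limma fit over all 12 progenitor libraries, in which 3.94% of 13237 genes were called and 2.42% were called lower.

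For the alpha chain, H2-Aa had 150.0, 124 and 132.5 units in Raptor KO against 224, 295 and 341 units in Raptor fl/fl. H2-Ab1, its beta partner, had 272, 309 and 232 units in Raptor KO against 516, 684 and 624 units in Raptor fl/fl. H2-Eb1, the second beta chain, had 72.9, 84.7 and 67.7 units in Raptor KO against 117, 239.8 and 253 units in Raptor fl/fl. The 3 Raptor KO libraries lay close together in each chain gene, and the lowest Raptor fl/fl library, always replicate 1, was still above all of them. The log2 fold change was -1.06 (SE 0.657) for H2-Aa, -1.16 (SE 0.423) for H2-Ab1 and -1.35 (SE 0.897) for H2-Eb1, with adjusted p of 0.437, 0.164 and 0.473.

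Cd74, the invariant chain, had 297, 299.5 and 267 units in Raptor KO against 555, 838 and 919 units in Raptor fl/fl, a log2 fold change of -1.39 (SE 0.513, adjusted p = 0.181). Ciita, the coactivator, had 4.25, 3.72 and 2.82 units in Raptor KO against 11.5, 22.6 and 26.0 units in Raptor fl/fl. Both groups were again apart. The log2 fold change of Ciita was -2.13 (SE 0.638, adjusted p = 0.0645). In fragments this was 14 in all Raptor KO libraries and 77 in all Raptor fl/fl libraries, a depth-corrected ratio of 0.186 (95% interval 0.097 to 0.331, counting error only).

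For the peptide exchange genes the 2 groups had similar values. H2-DMa had 348, 301 and 303.5 units in Raptor KO against 307, 379.9 and 363.5 units in Raptor fl/fl (log2 fold change -0.14, 95% interval -0.53 to 0.25, adjusted p = 0.744). H2-DMb1 had 42.5, 59.5 and 42.3 units in Raptor KO against 32.5, 53.7 and 41.4 units in Raptor fl/fl (log2 fold change 0.18, 95% interval -0.61 to 0.98, adjusted p = 0.847). In both genes the libraries overlapped, and no test set them against the chain genes. Within a library, H2-DMa over H2-Ab1 came to 0.974 to 1.31 in Raptor KO and 0.555 to 0.596 in Raptor fl/fl, whereas H2-Aa over H2-Ab1 came to 0.401 to 0.571 in Raptor KO and 0.431 to 0.546 in Raptor fl/fl. H2-DMb1 shares 94.1% of 1219 aligned transcript bases with its neighbour H2-DMb2, so its fragments may be split between them.

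The count for Raptor was not the same in every fit. At an unadjusted p under 0.05 there were 3 of 7 members (Cd74, H2-Ab1 and Ciita), as there were 19% of all genes. Limma with voom weights on recovered fragments called 2 (Cd74 and H2-Ab1), beside 501 calls among 13237 genes. With the 6 libraries of the Raptor line alone in the fit, 5 members fell: Cd74, H2-Aa, H2-Ab1, H2-Eb1 and Ciita, with adjusted p from 2.2e-06 to 0.0136, beside 1249 calls among 12442 genes.

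Other pathway genes moved in both directions in Raptor KO. Of 10 tested genes for class II accessory chains and peptide loading, 1 rose and 1 fell, where 1.53% of all genes were called higher and 2.42% lower. Ctss, the protease that trims the invariant chain in antigen presenting cells, averaged 300.2 ± 66.9 units in Raptor KO and 88.5 ± 12.7 units in Raptor fl/fl (SD, n = 3 each; log2 fold change 1.74, SE 0.232, adjusted p = 4.0e-04). H2-Ob, a chain of the H2-O heterodimer that restrains H2-DM, averaged 54.0 ± 14.5 units in Raptor KO and 110.2 ± 6.99 units in Raptor fl/fl (log2 fold change -1.05, adjusted p = 0.0457, and 0.0058 to 0.171 over 17 alternatives). Of 23 class II regulators, Ebf1 and Irf4, transcription factors of B cells, fell and 21 did not pass. Ebf1 averaged 4.49 units in Raptor KO and 59.4 units in Raptor fl/fl, with an adjusted p of 0.00238. None of 23 MHC class I presentation genes passed, with a median log2 fold change of 0.20 beside 0.03 over all genes and -1.16 over the 7 members.

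Tsc2 KO progenitors had less RNA of all 7 members than Tsc2 fl/fl on average. Of the 7, 5 fell in the fit over all genes (Cd74, H2-Aa, H2-DMa, H2-DMb1 and Ciita), where 7.12% of genes were called lower. The libraries were apart in 6 of 7, all but H2-Ab1, where 13.3% of all genes show such a split downwards. The median log2 fold change was -2.29 over the members and -0.02 over all genes.

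H2-Aa had 29.2, 90.8 and 11.1 units in Tsc2 KO against 121, 348 and 148 units in Tsc2 fl/fl (log2 fold change -2.52, SE 0.657, adjusted p = 0.0376). H2-Ab1 had 102, 196 and 108 units in Tsc2 KO against 183, 684 and 286 units in Tsc2 fl/fl (log2 fold change -1.34, SE 0.423, adjusted p = 0.0674). H2-Eb1 had 14.6, 51.6 and 2.22 units in Tsc2 KO, the last from 3 fragments, against 64.2, 214 and 95.9 units in Tsc2 fl/fl (log2 fold change -3.00, SE 0.897, adjusted p = 0.0621). In each chain gene replicate 2 was the highest library of its group in Tsc2 KO and in Tsc2 fl/fl, and in H2-Ab1 the Tsc2 KO replicate 2 passed the lowest Tsc2 fl/fl library. The 3 chain genes did not keep their proportions: H2-Aa over H2-Ab1 came to 0.103 to 0.463 in Tsc2 KO and 0.508 to 0.664 in Tsc2 fl/fl, and H2-Eb1 over H2-Ab1 to 0.0205 to 0.263 in Tsc2 KO and 0.313 to 0.351 in Tsc2 fl/fl.

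Cd74 had 78.9, 207 and 56.3 units in Tsc2 KO against 325, 909 and 374 units in Tsc2 fl/fl, and fell by 2.29 on the log2 scale (SE 0.513, adjusted p = 0.0218). Ciita was at 0 in replicates 1 and 3 of Tsc2 KO and had 1.38 units, from 2 fragments, in replicate 2, against 11.3, 30.5 and 4.70 units in Tsc2 fl/fl. A count of 0 allows up to 1.99 and 2.22 units in those libraries (3 fragments each, counting error only). Ciita was therefore close to the detection limit in Tsc2 KO. Its log2 fold change was -3.29 (SE 0.638, adjusted p = 0.00314), and 2 fragments against 54 gave a depth-corrected ratio of 0.0292 (95% interval 0.00345 to 0.111, counting error only).

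The H2-DM genes, which did not differ beyond the spread in Raptor KO, fell in Tsc2 KO. H2-DMa had 187, 107 and 129 units in Tsc2 KO against 283, 266 and 368 units in Tsc2 fl/fl, a log2 fold change of -1.14 (SE 0.186, adjusted p = 9.5e-04). H2-DMb1 had 22.5, 6.88 and 9.63 units in Tsc2 KO against 29.5, 29.6 and 27.3 units in Tsc2 fl/fl, a log2 fold change of -1.25 (SE 0.381, adjusted p = 0.0383). Here replicate 2 of Tsc2 KO was the lowest library of its group in both genes, unlike in the chain genes.

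H2-DMa and Ciita passed under all 18 alternatives run for the Tsc2 comparison. H2-DMb1 lost its call in 12 of the 18, H2-Aa in 6 and Cd74 in 3. Leaving out Tsc2 KO replicate 3 left 2 members called, and leaving out Tsc2 KO replicate 1 or Tsc2 fl/fl replicate 3 left 3. In that order these fits called 601 of 13158, 2498 of 13113 and 860 of 13141 genes. Without replicate 2 of both groups, the libraries with Y-linked transcripts, 6 members were called, beside 1275 of 13040 genes. H2-Ab1 (log2 fold change -1.11, adjusted p = 0.00266) and H2-Eb1 (-3.49, adjusted p = 0.00352) were among them and H2-DMb1 was not.

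**Figure D2:**
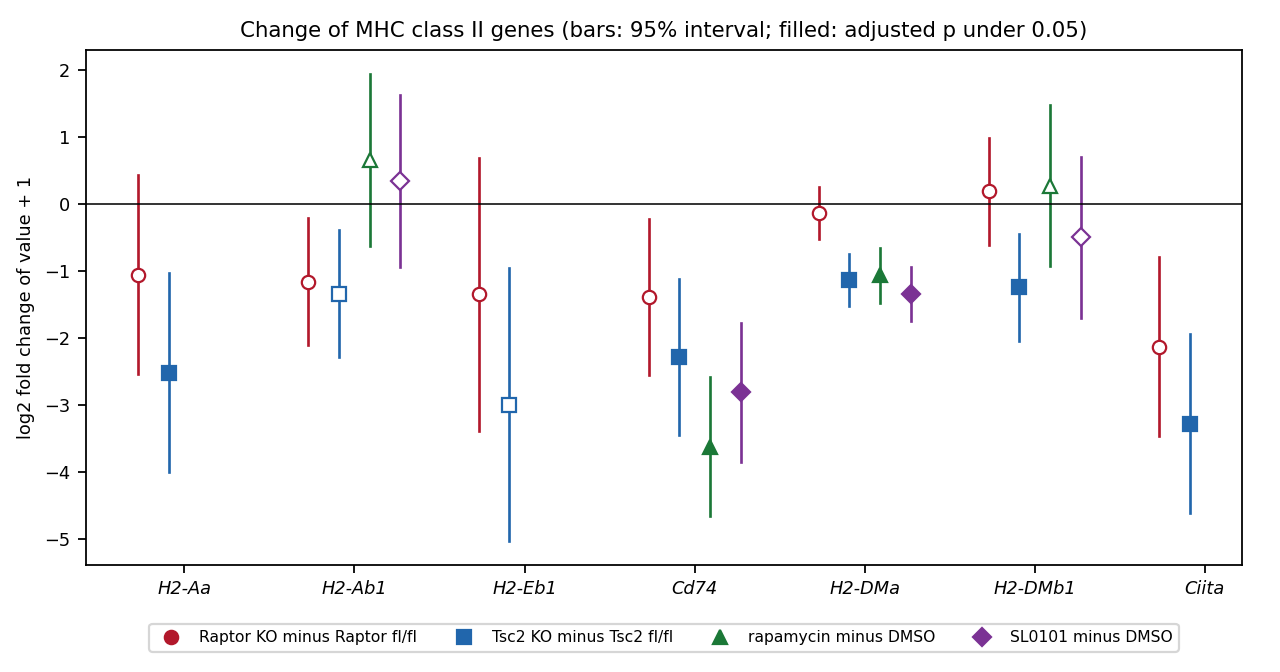
Log2 fold change of the value plus 1 for each MHC class II gene in 4 comparisons, with 95% intervals, filled where the adjusted p over all genes is under 0.05. H2-Aa, H2-Eb1 and Ciita have no value in Hoxb8 cells because they failed the filter there, and H2-DMa is filled in 3 comparisons and lies near 0 in Raptor KO.

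In the same Tsc2 KO libraries the proteases of the pathway rose. Of 10 tested accessory and peptide loading genes, 5 rose (Ctss, Ctsl, Lgmn, Ifi30 and Sppl2a) and 2 fell (H2-Ob and H2-Oa). Over all genes, 5.26% were called higher and 7.12% lower. Ctsl, a lysosomal cathepsin, averaged 532 ± 163 units in Tsc2 KO and 131.5 ± 32.7 units in Tsc2 fl/fl (SD, n = 3 each; log2 fold change 1.98, adjusted p = 2.4e-05). Ctss averaged 273 ± 33.9 units in Tsc2 KO and 77.8 ± 27.6 units in Tsc2 fl/fl (log2 fold change 1.85, adjusted p = 1.1e-04). H2-Ob averaged 14.5 ± 4.47 units in Tsc2 KO and 70.5 ± 15.1 units in Tsc2 fl/fl (log2 fold change -2.23, adjusted p = 1.3e-04). Its partner H2-Oa averaged 21.8 ± 11.4 units in Tsc2 KO and 50.4 ± 12.8 units in Tsc2 fl/fl (log2 fold change -1.28, adjusted p = 0.0194, and 0.00101 to 0.124 over 18 alternatives).

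Among 23 class II regulators, Ebf1, Spi1 and Irf4 fell and Jak1 rose in Tsc2 KO, and 19 did not pass. Over all genes, 7.12% were called lower and 5.26% higher. Spi1 encodes PU.1, a transcription factor of myeloid and B cells, and averaged 119.9 ± 26.1 units in Tsc2 KO and 363 ± 102 units in Tsc2 fl/fl (adjusted p = 3.4e-04). Of 23 MHC class I presentation genes, 8 fell and none rose. The lowest adjusted p among them was that of Psmb9, a subunit of the immunoproteasome, at 144 units in Tsc2 KO and 285 units in Tsc2 fl/fl (log2 fold change -1.05, adjusted p = 0.00925). Of 7 tested costimulatory genes Cd83, Icam1 and Cd40 fell, and Cd83, which stabilizes class II on the cell surface, averaged 7.75 ± 3.82 units in Tsc2 KO and 63.3 ± 26.6 units in Tsc2 fl/fl (adjusted p = 5.5e-04).

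The class II genes lie in a row on mouse chromosome 17, with H2-Oa and the H2-DM genes at 1 end and H2-Ab1, H2-Aa and H2-Eb1 at the other. Cd74 and Ciita lie elsewhere. Of 14 neighbouring genes in the RefSeq order, 8 fell in Tsc2 KO, where 7.12% of all genes were called lower, and 1, H2-Ob, in Raptor KO, where 2.42% were. The 8 are H2-Oa, H2-DMa, H2-DMb1, Psmb9, Tap1, Psmb8, H2-Ob and H2-Aa, from both ends of the row, and Brd2, a bromodomain gene within it, averaged 618 units in Tsc2 KO and 633 units in Tsc2 fl/fl (log2 fold change -0.03, adjusted p = 0.902). Besides the members, calls in Tsc2 KO were lost in 7 of 18 alternatives for Tap1, in 5 for Psmb8, in 4 for H2-Oa, in 3 for Psmb9 and in 0 for H2-Ob, and the call of H2-Ob in Raptor KO in 8 of 17.

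**Figure D3:**
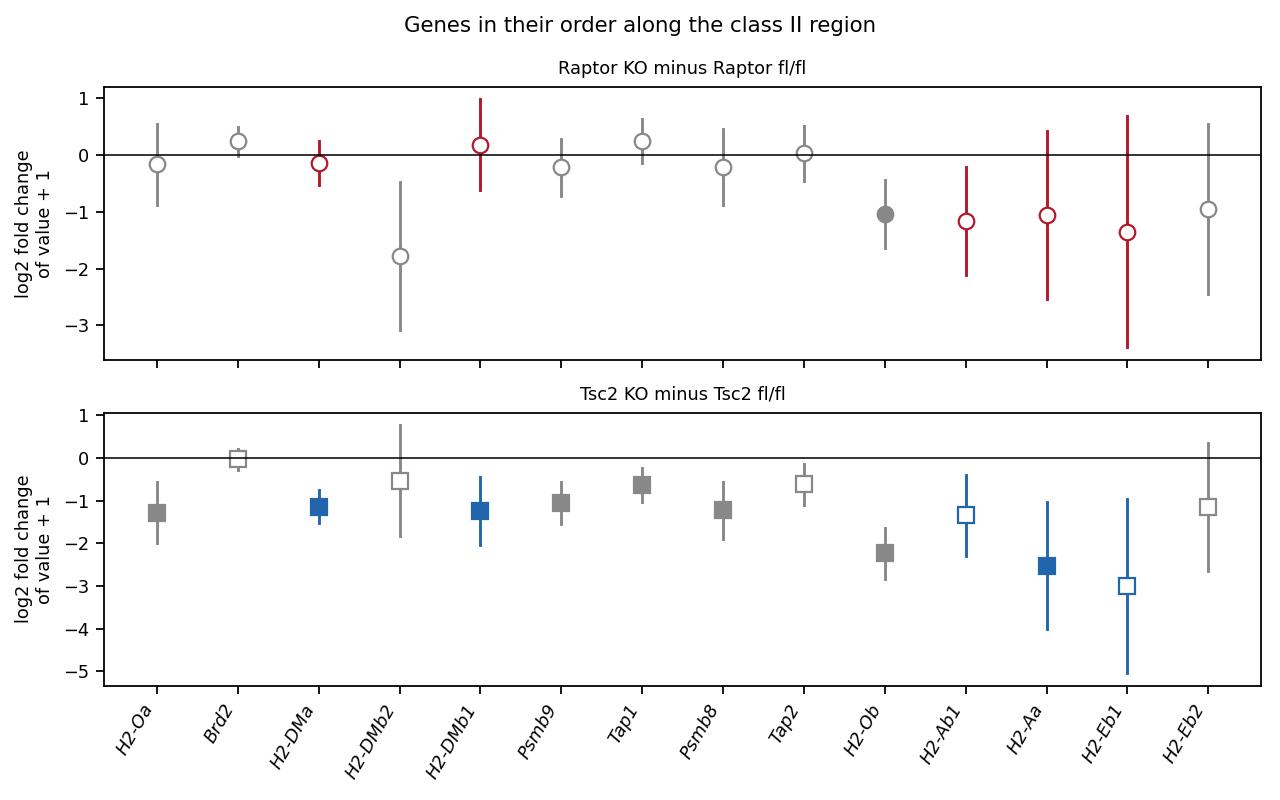
Log2 fold change of the value plus 1 with 95% intervals for 14 genes in their order along the class II region, in Raptor KO minus Raptor fl/fl (top, red members) and Tsc2 KO minus Tsc2 fl/fl (bottom, blue members), grey for genes that are not members and filled where the adjusted p is under 0.05. In Raptor KO the members H2-DMa and H2-DMb1 lie near 0 while H2-Ab1, H2-Aa and H2-Eb1 lie below -1, and in Tsc2 KO all of them lie below -1.

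The 2 knockout effects were compared directly, as the Raptor effect minus the Tsc2 effect. Of the 7 members 1 passed, where 5.99% of all genes were called higher and 1646 of 13237 in either direction. This member, H2-DMa, differed by 1.00 on the log2 scale (SE 0.263, adjusted p = 0.0198). It no longer passed with 1 of these libraries left out: Raptor fl/fl replicate 1, Tsc2 fl/fl replicate 3, Tsc2 KO replicate 2 or Tsc2 KO replicate 3, at adjusted p of 0.0557, 0.0563, 0.0583 and 0.0518. H2-DMb1 differed by 1.43 (SE 0.539, adjusted p = 0.0896). For the other members the difference came to 0.90 for Cd74, 1.46 for H2-Aa, 0.18 for H2-Ab1, 1.65 for H2-Eb1 and 1.15 for Ciita, with adjusted p between 0.353 and 0.884. Without replicate 2 of both Tsc2 groups 3 members passed, Cd74 (0.98), H2-Aa (1.76) and H2-DMa, beside 1406 of 13040 genes.

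The 2 control groups were also set against each other, Tsc2 fl/fl minus Raptor fl/fl. None of 7 members passed in limma, none passed with voom weights and none had an unadjusted p under 0.05, where 0.604% of all genes were called and 13.4% had such an unadjusted p. All 7 had a log2 fold change below 0, from -0.87 for H2-Ab1 to -0.21 for H2-DMa. The libraries were apart only in H2-DMb1, lower in Tsc2 fl/fl, where 9.25% of all genes show such a split downwards. Without Tsc2 fl/fl replicate 2 the gene H2-Ab1 passed at -1.40 (adjusted p = 0.0399), beside 29 of 13151 genes. Without replicate 2 of both Tsc2 groups H2-Ab1 and Cd74 (-1.11) passed, beside 37 of 13040 genes.

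Markers of B cells moved with the class II genes in the progenitors. The sum over 23 B cell markers came to 605 to 649 units in Raptor KO against 1686 to 2359 units in Raptor fl/fl, and to 176 to 299.6 units in Tsc2 KO against 911 to 1299 units in Tsc2 fl/fl. Of the 23 markers, 17 fell in Raptor KO and 19 in Tsc2 KO, where 2.42% and 7.12% of all genes were called lower. Their median log2 fold changes were -3.07 and -2.81. Ebf1 and Pax5 stand among the class II regulators too. Ms4a1, which encodes the B cell surface protein CD20, averaged 0.626 units in Raptor KO against 99.2 units in Raptor fl/fl, and 0.663 units in Tsc2 KO against 46.2 units in Tsc2 fl/fl. None of the 23 was at 0 in all libraries of a progenitor group except Pax5 in Tsc2 KO. The sum of H2-Aa, H2-Ab1, H2-Eb1 and Cd74 over the B cell marker sum was 1.08 to 1.35 in Raptor KO against 0.837 to 1.11 in Raptor fl/fl, and 0.75 to 2.64 in Tsc2 KO against 0.635 to 1.66 in Tsc2 fl/fl. Such a sum rests mostly on the markers with the highest values. By median log2 fold change the 7 members fell less than the markers, by -1.16 in Raptor KO and -2.29 in Tsc2 KO. The ratio therefore does not show that both fell in proportion. In bulk RNA, fewer cells of a type and less RNA per cell cannot be told apart, and the part of the markers in the class II result was not tested.

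**Figure D4:**
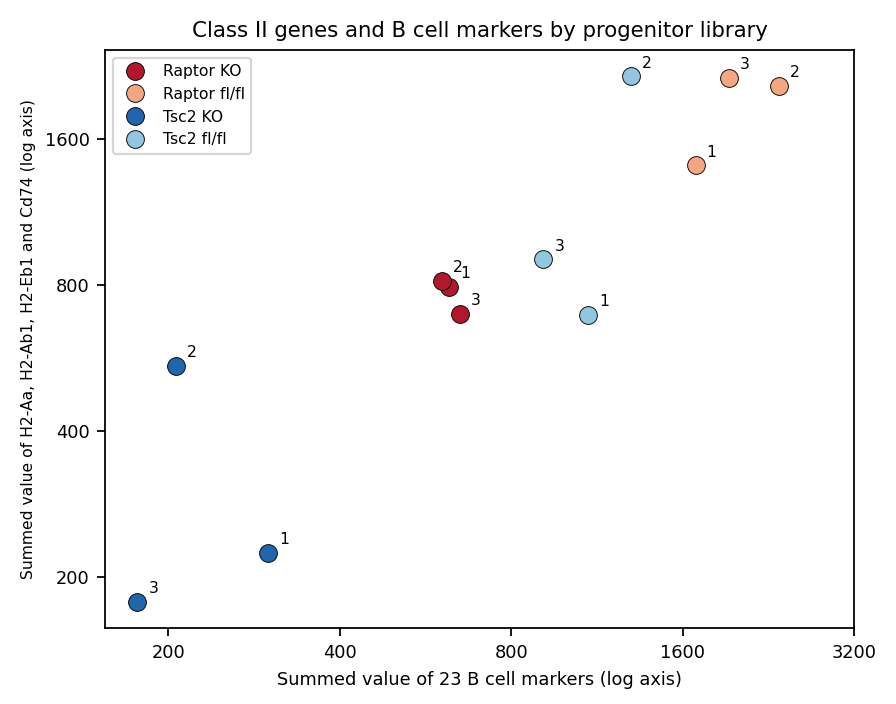
Summed value of H2-Aa, H2-Ab1, H2-Eb1 and Cd74 against the summed value of 23 B cell markers in the 12 progenitor libraries, on log axes, with 1 point per library and its replicate number. The Raptor KO libraries lie at 605 to 649 units of B cell markers and 699 to 818 units of class II genes, and replicate 2 of Tsc2 KO lies at 545 units of class II genes, above the other 2 Tsc2 KO libraries at 225 and 178.

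Markers of dendritic cells, monocytes and macrophages were counted in the same way. Over all genes, 1.53% were called higher and 2.42% lower in Raptor KO, and 5.26% higher and 7.12% lower in Tsc2 KO. Of 20 dendritic cell markers, 1 rose in Raptor KO (Flt3), and 6 fell and 1 rose in Tsc2 KO. Their sum came to 2679 to 3081 units in Raptor KO against 2605 to 2825 units in Raptor fl/fl, and to 1215 to 1660 units in Tsc2 KO against 1957 to 2619 units in Tsc2 fl/fl, with Cd209a at 0 in both Tsc2 groups. Of 19 monocyte and macrophage markers, 2 rose in Raptor KO and 6 in Tsc2 KO, and none fell. Their sum came to 1167 to 1798 units in Raptor KO against 928 to 1071 units in Raptor fl/fl, and to 983 to 1856 units in Tsc2 KO against 363 to 1943 units in Tsc2 fl/fl. Gpnmb, a lysosomal glycoprotein of macrophages, averaged 384 ± 209 units in Raptor KO against 1.87 ± 2.05 units in Raptor fl/fl, and 406.5 ± 139 units in Tsc2 KO against 0.564 ± 0.977 units in Tsc2 fl/fl. T and NK cell markers, 10 genes, summed to 1073 to 1221 units in Raptor KO against 1321 to 1452 units in Raptor fl/fl, and to 266 to 848 units in Tsc2 KO against 844 to 1314 units in Tsc2 fl/fl, where only the Tsc2 groups overlapped. Of 8 tested, 1 rose (Cd4) and 1 fell (Klrb1c) in Tsc2 KO, and their median log2 fold change was -0.28 in Raptor KO; Cd3e was at 0 in both Tsc2 groups. The part of these markers in the class II result was not tested.

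The profile of the 4 core genes H2-Aa, H2-Ab1, H2-Eb1 and Cd74 over the 12 progenitor libraries was used to find the genes most like it, by Pearson r of log2 values among 9938 genes with a mean of at least 10 units. The first 10 outside the members were Sdpr (r = 0.949), Ccl5, Ly6d, Cd79a, Blnk, Ctla2b, Nwd1, 8430427H17Rik, H2-Ob and Cd72 (r = 0.894). Among them Cd79a, part of the B cell receptor, averaged 18.5 units in Raptor KO, 221 in Raptor fl/fl, 2.76 in Tsc2 KO and 105 in Tsc2 fl/fl. Of the members outside the core, Ciita had r = 0.937, H2-DMa 0.712 and H2-DMb1 0.621. These values describe 12 libraries that share groups and size factors and carry no test. In the 6 Hoxb8 libraries the same rule gave Galc, Pptc7, Pdxk, Pacs1 and Hook3, but the profile there rests on H2-Aa and H2-Eb1 at 1 fragment or none, so this list is not read further.

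In Hoxb8 cells 3 of the 7 members were at or near 0 in every library. Ciita was at 0 in all 6 libraries, where 0 allows up to 2.27 to 3.36 units, and H2-Aa and H2-Eb1 had 1 fragment each in a single library, H2-Aa under DMSO and H2-Eb1 under rapamycin. These 3 failed the filter of a value of 1 in at least 2 libraries and have no fold change. Cd74 and H2-DMa were lower under both inhibitors, and H2-Ab1 and H2-DMb1 were low in all 3 groups.

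Cd74 had 3.67 and 3.36 units under rapamycin and 4.37 and 10.6 units under SL0101, against 44.25 and 67.2 units under DMSO. In fragments this was 4 and 3 under rapamycin, 5 and 14 under SL0101, and 56 and 81 under DMSO. Every treated library lay below both DMSO libraries, a split that 27% of genes show under rapamycin and 28.2% under SL0101. The log2 fold change of Cd74 was -3.62 under rapamycin (SE 0.498, adjusted p = 2.9e-05) and -2.81 under SL0101 (SE 0.498, adjusted p = 7.1e-04). Without DMSO replicate 2 the SL0101 call was lost (adjusted p = 0.0648).

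H2-DMa had 134 and 135.5 units under rapamycin and 110.2 and 111 units under SL0101, against 232 and 345 units under DMSO. The replicates of each inhibitor were close together and the DMSO libraries were not, yet the groups did not overlap. The log2 fold change of H2-DMa was -1.07 under rapamycin (SE 0.197, adjusted p = 7.2e-04) and -1.35 under SL0101 (SE 0.197, adjusted p = 1.0e-04). Without DMSO replicate 2 the rapamycin value was -0.78 (adjusted p = 0.0736).

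H2-Ab1 had 5.50 and 6.72 units under rapamycin and 7.00 and 3.03 units under SL0101, against 2.37 and 4.98 units under DMSO, from 3 to 8 fragments a library. Both rapamycin libraries lay above both DMSO libraries, as they do in 25.3% of genes. Its log2 fold change was 0.66 (adjusted p = 0.568) under rapamycin and 0.34 (adjusted p = 0.791) under SL0101. H2-DMb1 had 21.1 and 6.72 units under rapamycin and 5.25 and 8.34 units under SL0101, against 6.32 and 14.9 units under DMSO. Its log2 fold change was 0.27 (adjusted p = 0.834) under rapamycin and -0.50 (adjusted p = 0.653) under SL0101. With 1 library left out, the sign of H2-Ab1 turned under SL0101 and that of H2-DMb1 under both inhibitors.

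In all, 2 of the 4 tested members fell under rapamycin, where 6.35% of 11804 genes were called lower, and 2 of 4 under SL0101, where 5.79% were. Both comparisons use the same 2 DMSO libraries. Rapamycin minus SL0101, at doses that differ, gave none of 4 members past the threshold in limma, none with voom weights and none at an unadjusted p under 0.05, where 8.87% of genes were called and 23.6% had such an unadjusted p. The 95% interval of that difference ran from -1.84 to 0.23 for Cd74, from -0.13 to 0.69 for H2-DMa, from -0.97 to 1.61 for H2-Ab1 and from -0.42 to 1.97 for H2-DMb1. For 3 of the 4 the interval reaches past 1 on the log2 scale.

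**Figure D5:**
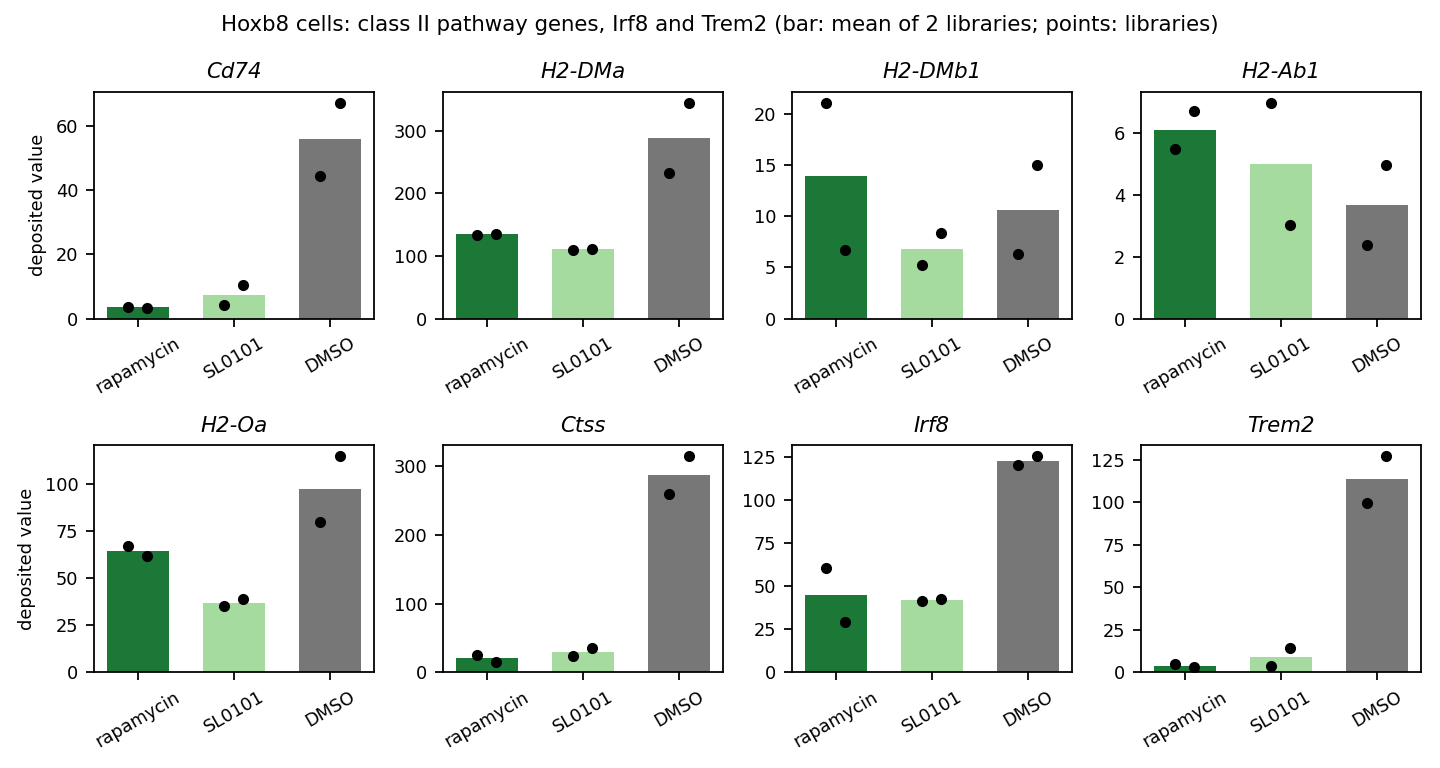
Deposited values in Hoxb8 cells under rapamycin, SL0101 and DMSO for 4 members, H2-Oa, Ctss, Irf8 and Trem2, with bars at the mean of 2 libraries and points for the libraries. Cd74 and H2-DMa lie lower in all 4 treated libraries than under DMSO, and H2-Ab1 and H2-DMb1 reach no more than 7.00 and 21.1 units in any library.

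Around these members, Ctss fell under both inhibitors, opposite in sign to the progenitor knockouts. It averaged 20.1 ± 7.85 units under rapamycin and 29.6 ± 8.49 units under SL0101, against 287 ± 39.2 units under DMSO (SD, n = 2 each; log2 fold changes -3.81 and -3.25, adjusted p = 1.3e-08 and 2.2e-07). Of 10 tested accessory and loading genes, 3 fell under rapamycin (Ctss, Sppl2a and Unc93b1) and 4 under SL0101 (Ctss, H2-Oa, Ctsl and Unc93b1), and none rose. Over all genes, 6.35% were called lower under rapamycin and 5.79% under SL0101. H2-Oa averaged 64.3 units under rapamycin and 36.8 units under SL0101, against 97.2 units under DMSO, and the adjusted p was 0.18 under rapamycin and 0.00147 under SL0101. Of 20 tested regulators 3 fell under each inhibitor, Irf4 and Irf8 under both. Irf8, a transcription factor of monocytes and dendritic cells, averaged 44.8 ± 22.2 units under rapamycin and 41.8 ± 0.941 units under SL0101, against 123 ± 3.70 units under DMSO (adjusted p = 0.00112 and 0.00143).

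The summed values of monocyte and macrophage markers and of dendritic cell markers were lower under both inhibitors, as Cd74 and H2-DMa were. The sum over 19 monocyte and macrophage genes came to 4797 to 5535 units under rapamycin and 4449 to 4830 units under SL0101, against 7459 to 8649 units under DMSO, with C1qa at 0 in all 3 groups. Of 14 tested markers 8 fell and 1 rose under rapamycin, and 10 fell and 2 rose under SL0101. Over all genes, 6.35% were called lower and 5.4% higher under rapamycin, and 5.79% lower and 5.09% higher under SL0101. Trem2, a receptor of macrophages, averaged 3.97 ± 0.865 units under rapamycin and 8.95 ± 7.71 units under SL0101, against 113 ± 19.4 units under DMSO (adjusted p = 2.1e-06 and 3.2e-05). The sum over 20 dendritic cell markers came to 2215 to 2480 units under rapamycin and 2298 to 2324 units under SL0101, against 2831 to 3164 units under DMSO, with Clec9a and Cd209a at 0 in all 3 groups. Most of the DMSO sum came from Cst3, which averaged 1938 units under DMSO and 1423 units under rapamycin. Of 11 tested, 4 fell under rapamycin (Itgax, Irf8, Naaa and Cst3) and 1 under SL0101 (Irf8), where 6.35% and 5.79% of all genes were called lower. The log2 fold change was below 0 in 6 of the 11 under rapamycin and in 10 under SL0101. The sum over the 14 progenitor genes went the other way. It came to 59510 to 60540 units under rapamycin and 26620 to 34100 units under SL0101, against 13670 to 15260 units under DMSO. Mpo alone averaged 41160 units under rapamycin and 6470 units under DMSO. Of 12 tested, 6 rose under rapamycin and 5 under SL0101, where 5.4% and 5.09% of all genes were called higher. None fell, and the log2 fold change was below 0 in 3 under rapamycin and in 5 under SL0101. B cell markers were mostly absent: of 23, 13 were at 0 in every rapamycin library, 15 in every SL0101 library and 13 in every DMSO library, Ms4a1 and Pax5 among them in each group. The sum of the 23 was 1144 to 1421 units under rapamycin and 731 to 878 units under SL0101, against 747 to 837 units under DMSO, most of it from Cd37, which averaged 1259 units under rapamycin and 796 units under SL0101, against 779 units under DMSO. The part of these markers in the class II result was not tested.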

How the data were processed

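The authors deposited 1 table of signal values for 18 libraries: each value is a fragment count scaled by the library's size factor. Per the submitters' processing notes, BWA, TopHat2 2.0.10, Cufflinks 2.2.1 and Cuffnorm were used; their roles and the genome build are not given in the sources used here. In each library at least 98.0% of values above 0 fell on multiples of a constant (tolerance 0.01), and dividing by it gave fragments. Groups follow the sample titles.

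Genes at a value of 1 or more in at least 3 progenitor or 2 Hoxb8 libraries were tested on log2(value + 1), so fold changes of low genes are understated. The 12 progenitor and 6 Hoxb8 libraries had separate fits in limma 3.58.1 (R 4.3.3), with 1 mean per group, an expression trend, robust estimation and Benjamini-Hochberg adjustment over all genes of a comparison, at 0.05. There were 7 comparisons. The fit was tested on simulated data. Intervals are 95% and cover counting error only where stated.

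All members are described. From each of 9 other gene lists up to 4 called genes with the smallest adjusted p could be named per comparison, and part of them are; genes that complete a count of 5 or fewer were named after their values were seen, and neighbours in the class II region are given by position. Members and lists were chosen with earlier results of these data known. Alternatives covered the pseudocount, filter, variance model, normalization, voom weights, replicate block, which libraries share a fit, and each library removed in turn. Replicate numbers were not treated as pairs, since same-numbered libraries did not all correlate above 0.1 once group means were taken out.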

Additional observations from a re-analysis of the deposited data

Results flagged for a closer look

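The effect of the knockouts on H2-DMa, the alpha chain of the peptide exchange factor, differed between the Raptor and Tsc2 lines by the test of the difference itself. H2-DMa was the only member of the 7 that passed, where 1646 of 13237 genes passed in either direction. The Raptor effect minus the Tsc2 effect was 1.00 on the log2 scale (0.998, SE 0.263, adjusted p = 0.0198). The call was lost in 5 of 23 alternatives, with an adjusted p of up to 0.0852: without trend and robust estimation, and without Raptor fl/fl replicate 1, Tsc2 fl/fl replicate 3, Tsc2 KO replicate 2 or Tsc2 KO replicate 3. H2-DMa averaged 318 ± 26.5 units in Raptor KO against 350.3 ± 38.1 units in Raptor fl/fl, and 141 ± 41.5 units in Tsc2 KO against 305 ± 54.7 units in Tsc2 fl/fl (SD, n = 3 each). The Raptor libraries overlapped and the Tsc2 libraries did not.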

How the results depend on the processing

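In Raptor KO, 0 of 7 members passed and the leave-one-out fits gave 0 to 0. The count was 1 with a pseudocount of 5, 1 with all 18 libraries in one fit, 2 with voom weights and 5 with only the groups compared. In that order these fits called 609 of 13237, 827 of 14397, 501 of 13237 and 1249 of 12442 genes, and the reported fit 522 of 13237. In Tsc2 KO the count was 5, beside 1638 of 13237 genes, and 2 with only the groups compared, beside 471 of 12097. With 1 library left out it was as few as 2, beside 601 of 13158 genes without Tsc2 KO replicate 3. It was 6 without replicate 2 of both Tsc2 groups, beside 1275 of 13040 genes. The difference between the knockouts had 1 member, 0 without trend and robust estimation, 0 to 2 when 1 library was left out and 3 without replicate 2 of both Tsc2 groups. In that order 1646 of 13237, 714 of 13237, 897 to 2519 and 1406 of 13040 genes were called. Between the fl/fl groups the count was 0, 0 to 1 when 1 library was left out and 2 without those 2 libraries. Here 80 of 13237, 7 to 41 and 37 of 13040 genes were called. Rapamycin and SL0101 had 2 each, and 1 and 0 without trend and robust estimation, and 1 to 2 each when 1 library was left out. Rapamycin minus SL0101 had 0 throughout.

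A replicate block gave 2 members in Raptor KO (H2-Ab1, adjusted p = 0.0227, and Ciita, 0.048), 7 in Tsc2 KO (H2-Ab1, adjusted p = 0.00498, and H2-Eb1, 0.0402, beside the 5), 1 for the difference, 0 between controls, 2 for each inhibitor and 0 between inhibitors. Over all 13237 genes the block called 706 in Raptor KO, 1882 in Tsc2 KO, 1855 for the difference and 169 between controls. The reported fit called 522, 1638, 1646 and 80. Over 11804 genes the block called 1857 under rapamycin, 1828 under SL0101 and 1691 between inhibitors. The reported fit called 1386, 1284 and 1047 there. Correlations of same-numbered libraries were 0.026, 0.047 and 0.01 (Raptor line), 0.217, 0.245 and -0.032 (Tsc2 line) and 0.044 to 0.046 (Hoxb8 cells), so the numbers are not read as pairs. In the Tsc2 line, both libraries with Y-linked transcripts are replicate 2.

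The sign changed in 8 cases, none of a called value. With 1 library left out, the knockout difference of H2-Ab1 ran from -0.345 (without Tsc2 fl/fl replicate 2) to 0.604, and it was -0.047 without replicate 2 of both Tsc2 groups. SL0101 minus DMSO for H2-Ab1 was -0.075 without DMSO replicate 1 and -0.155 without SL0101 replicate 1, and at most 0.833; rapamycin minus SL0101 was -0.175 without SL0101 replicate 2 and at most 0.813. For H2-DMb1, rapamycin minus DMSO was -0.288 without DMSO replicate 1 and -0.485 without rapamycin replicate 1, and at most 1.03; SL0101 minus DMSO was 0.061 without DMSO replicate 2 and at least -1.06. The cause was not tested.

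No scaling moved the median of all genes by over 0.1. With a common total per library, 38.6% of the calls for rapamycin minus SL0101 were higher, and 50% in the fit reported. With only the groups compared in the fit, 1249 genes passed in Raptor KO and 471 in Tsc2 KO, where the reported fit called 522 and 1638. Without trend and robust estimation these counts were 215 and 929, and 188 under rapamycin and 97 under SL0101 against 1386 and 1284 in the reported fit. The planned edgeR test on recovered fragments was not run, since some values gave no whole fragment. Groups of 2 and 3 libraries, and members at under 10 fragments in Hoxb8 cells, limit what can be detected.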
